A study of Mus musculus with 6 samples.

Results

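Type 2 cytokines and the receptors for the alarmins interleukin 33 and interleukin 25 were followed in RNA-seq gene counts from mouse Th9 cells. The set was given as a list of 9 symbols, Il4, Il5, Il13, Il3, Csf2, Il31, Areg, Il1rl1 and Il17rb, and all 9 were found among the 21233 genes of the table. The 6 libraries, all labelled as Th9 cells, fall into 3 controls that received no sorafenib and 3 treated with sorafenib, a kinase inhibitor known to act on RAF and on receptor tyrosine kinases. The labels do not give the strain, the age of the mice, the culture conditions or the dose, duration and vehicle of sorafenib. The replicates carry numbers but no statement of separate cultures or animals, so the spread behind each p-value may be technical.

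Interleukins 4, 5 and 13 are the signature products of type 2 immunity and are encoded close together on chromosome 11, with Il3 and Csf2 farther along the same chromosome. The alarmins are released by damaged or stimulated barrier tissue. Interleukin 33 signals through ST2, the product of Il1rl1, paired with the shared chain encoded by Il1rap, and interleukin 25 signals through IL-17RB paired with IL-17RA. Th9 cells arise from naive CD4 T cells under interleukin 4 and TGF-β, and their type 2 cytokine transcripts are known to be lower than in Th2 cells.

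Totals lay between 36981476 and 38126521 counts, and a count of 1 was worth 0.0255 to 0.029 CPM (a count relative to its library's total, adjusted with TMM factors). Control replicate 2 lay farthest from its group, with a median absolute log2 difference of 0.218 from its mates against 0.0716 to 0.168 in the other libraries. A gene is referred to as called where edgeR's quasi-likelihood test gave it an adjusted p under 0.05. Of the 13255 genes that could be tested, 1128 were called as higher in sorafenib libraries and 1250 as lower, and the median log2 fold change was -0.01. This balance depends on the scaling, with 1496 higher and 826 lower for total counts only. These are bulk libraries, in which fewer cells of a type and less RNA per cell cannot be told apart.

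Of the 9 members, 6 had enough counts to be tested, and 1 of them was called, Il1rl1, which rose. Among all tested genes 17.9% were called, 8.51% as higher and 9.43% as lower, so a share of 1 in 6 is close to the background. The 3 classical type 2 cytokines Il4, Il5 and Il13 were not called. In 4 of the 9 members the control and sorafenib libraries did not overlap: Il1rl1, Il17rb and Il31 were higher in every sorafenib library and Il3 was lower. Non-overlap occurred in 36.3% of all tested genes, and among the 6 tested members in 2. Il3, Il31 and Areg had too few counts for the test, and their values are given as counts.

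**Figure D1:**
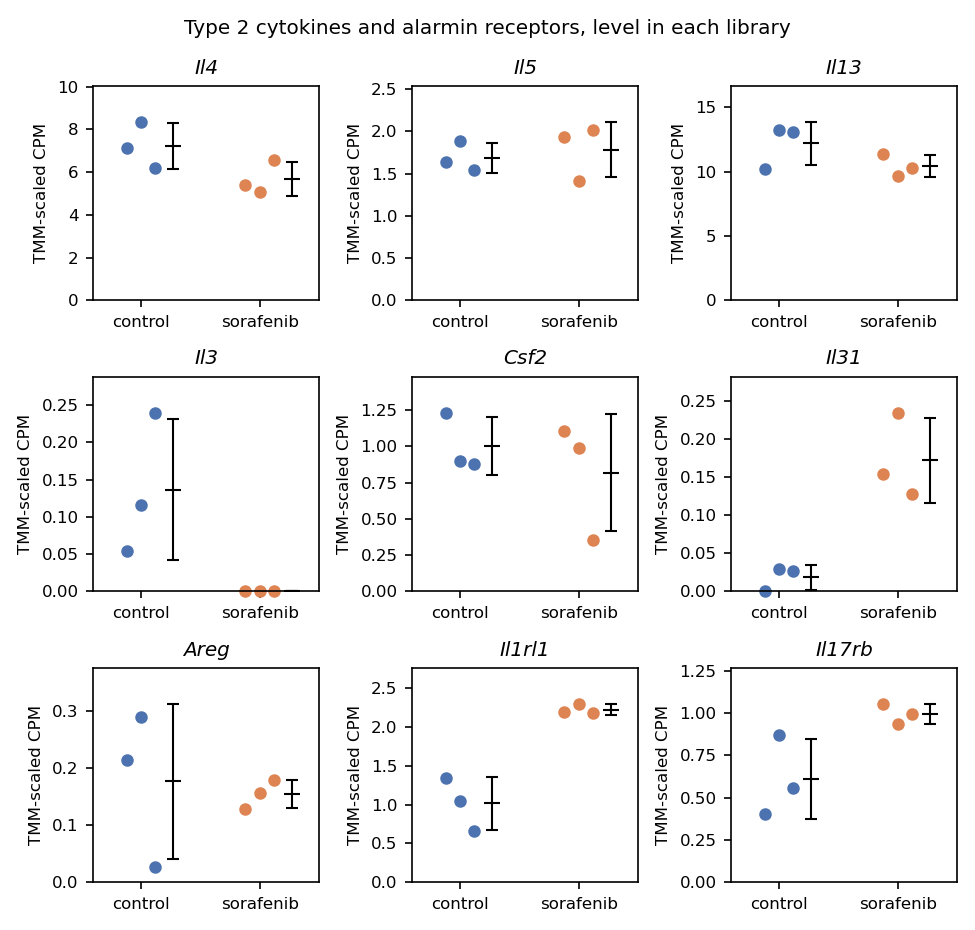
TMM-scaled CPM of each of the 9 members (vertical axes, linear and starting at 0) in the 3 control and 3 sorafenib libraries; points are libraries and black marks are the mean with its SD. The groups are separate for Il1rl1, Il17rb, Il31 and Il3 and overlap for the other members.

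Levels per gene length, in FPKM as deposited, placed the members far below Il9, the defining cytokine of these cells. Il9 had 341 ± 16.5 FPKM in control and 499.999 ± 26 FPKM in sorafenib libraries (SD, n = 3 each). Il4 came next with 11.96 ± 1.37 FPKM in control and 9.94 ± 1.41 in sorafenib libraries, above 79.6% and 76.5% of all genes in the table. Il13 followed with 9.82 ± 1.13 FPKM in control and 8.89 ± 0.681 in sorafenib libraries. The Il4 and Il13 ranges overlapped in both groups, so the order between these neighbours is within their spread.

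Il5 lay an order of magnitude lower, at 1.07 ± 0.0672 FPKM in control and 1.19 ± 0.216 in sorafenib libraries. Csf2 lay below it without overlap in either group, and overlapped Il17rb in sorafenib libraries, at 0.765 ± 0.178 FPKM in control and 0.655 ± 0.322 in sorafenib libraries. Il17rb, Il3, Areg and Il1rl1 lay between 0.133 and 0.285 FPKM on average in control libraries, each overlapping the next in that order. Il31 was lowest in control at 0.0143 ± 0.0124 FPKM. In sorafenib libraries the order of the low genes differed, with Il17rb at 0.496 ± 0.0261 FPKM, Il1rl1 at 0.305 ± 0.0107 and Il31 at 0.143 ± 0.0469, overlapping Areg at 0.131 ± 0.0216 and above Il3, which was listed at 0 in all 3.

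**Figure D2:**
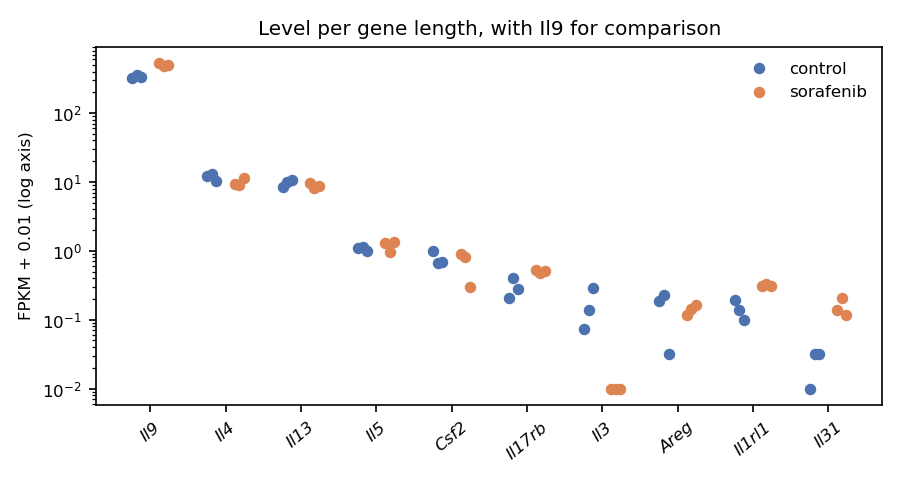
Deposited FPKM plus 0.01 (vertical axis, log scale) of Il9 and the 9 members, ordered by their control mean; each point is a library. Il4 and Il13 are near 10 FPKM, far under Il9, and the alarmin receptors Il1rl1 and Il17rb are under 1 FPKM in every library.

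Il4 encodes the cytokine that drives Th2 differentiation and IgE class switching. Its level was 7.13, 8.36 and 6.18 CPM in control replicates 1 to 3 and 5.38, 5.06 and 6.59 CPM in sorafenib replicates 1 to 3. The highest sorafenib library exceeded the lowest control library, so the groups overlapped. Il4 was 1.27-fold lower with sorafenib (log2 fold change -0.35 ± 0.16 SE, adjusted p = 0.169), and the 95% interval of the ratio of sorafenib to control ran from 0.616 to 1.004.

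Il13 encodes the effector cytokine of mucus production and airway reactivity and sits beside Il4. It had 10.2, 13.2 and 13.1 CPM in the control libraries and 11.4, 9.67 and 10.3 CPM in the sorafenib libraries. Control replicate 1 lay among the sorafenib values. The log2 fold change was -0.22 ± 0.13 SE (adjusted p = 0.275), with a ratio between 0.705 and 1.04.

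Il5, whose product matures and recruits eosinophils, stood at 1.63, 1.89 and 1.54 CPM in control and at 1.93, 1.41 and 2.02 CPM in sorafenib libraries. Its values were interleaved across the groups, with sorafenib replicate 2 the lowest of all 6 and sorafenib replicate 3 the highest. The log2 fold change was 0.08 ± 0.25 SE (adjusted p = 0.863), and the interval of the ratio, 0.726 to 1.54, includes both lower and higher levels.

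Il9 itself was called, as 1.39-fold higher (adjusted p = 0.00357), so Il9 passed the test while Il4, Il5 and Il13 did not. Whether its change differs from theirs was not tested. The ratio of Il9 to Il4 FPKM was 26.6, 27.3 and 32.2 in the control libraries and 56.3, 53.5 and 42.9 in the sorafenib libraries, without overlap.

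Csf2 encodes GM-CSF, a growth and activation factor of myeloid cells. The control libraries held 1.23, 0.8998 and 0.879 CPM and the sorafenib libraries 1.11, 0.991 and 0.357 CPM. Sorafenib replicate 3 stood low at 14 counts, against 31 to 46 counts in the other 5 libraries. The log2 fold change was -0.30 ± 0.43 SE (adjusted p = 0.696), and without sorafenib replicate 3 it was 0.062 (adjusted p = 0.948), so the direction rested on that library.

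Il3, which encodes a growth factor of mast cells and basophils and is the neighbour of Csf2, had 2, 4 and 9 counts in the control libraries and 0 in each sorafenib library. The sum of 15 control counts has an exact 95% Poisson interval of 8.4 to 24.7, and the sum of 0 in the sorafenib libraries has an upper limit of 3.69, so the intervals of the sums did not overlap. In an edgeR fit without the low-count filter, in which 11.9% of genes were called, its adjusted p was 0.0261; on log2(FPKM + 1) it was 0.134 with limma, and DESeq2 gave an unadjusted p of 0.00903 and no adjusted p.

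The cytokine encoded by Il31 is known for evoking itch. Il31 moved the other way from Il3, with 0, 1 and 1 counts in control and 6, 9 and 5 counts in sorafenib libraries. The ratio of the scaled sums was 9.39, with an exact 95% interval of 2.28 to 82.9, which covers counting error only. Without the low-count filter its adjusted p was 0.098 by edgeR, and it was 0.0379 on log2(FPKM + 1) with limma. The result at these few counts therefore depends on the test.

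Areg encodes amphiregulin, an EGF receptor ligand that type 2 lymphocytes release in tissue repair. It had 8, 10 and 1 counts in control and 5, 6 and 7 counts in sorafenib libraries, and the sorafenib values lay inside the control range. The ratio of the scaled sums was 0.89, with an exact interval of 0.44 to 1.79. Of the EGF family ligands, their receptors and their processing genes, 2 of 8 tested were called higher and 0 lower. These were the sheddase gene Adam10, by 1.16-fold (adjusted p = 0.0388), and Rhbdf2, a trafficking partner of ADAM17, by 1.23-fold (adjusted p = 0.0243). The call of Adam10 was lost without any 1 of the sorafenib replicates or without control replicate 1 or 3, and that of Rhbdf2 without any 1 of the sorafenib replicates or without control replicate 3 (adjusted p up to 0.185 and 0.106 over the alternatives). Adam10 was also not called without the low-count filter (adjusted p = 0.0603) or on log2(FPKM + 1) without a filter (0.0514).

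Il1rl1, the gene of ST2, rose with sorafenib. It had 50, 36 and 25 counts in the control libraries and 85, 88 and 85 counts in the sorafenib libraries, or 1.34, 1.04 and 0.666 CPM against 2.19, 2.29 and 2.17 CPM. Every sorafenib library lay above every control library, and the sorafenib values lay close together while the control values were spread.

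Il1rl1 was 2.18-fold higher, with a 95% interval of 1.4 to 3.38, a log2 fold change of 1.12 ± 0.29 SE and an adjusted p of 0.0208. The size held in the count fits that left out a library, with log2 fold changes from 0.90 to 1.37. Leaving out control replicate 3 ended the call (adjusted p = 0.0666), as did leaving out sorafenib replicate 1, 2 or 3 (adjusted p = 0.0785, 0.072 and 0.0769) and testing on log2(FPKM + 1) without a filter (adjusted p = 0.0746). Counts are per gene, so membrane and soluble ST2, which come from different Il1rl1 transcripts, were not told apart.

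**Figure D3:**
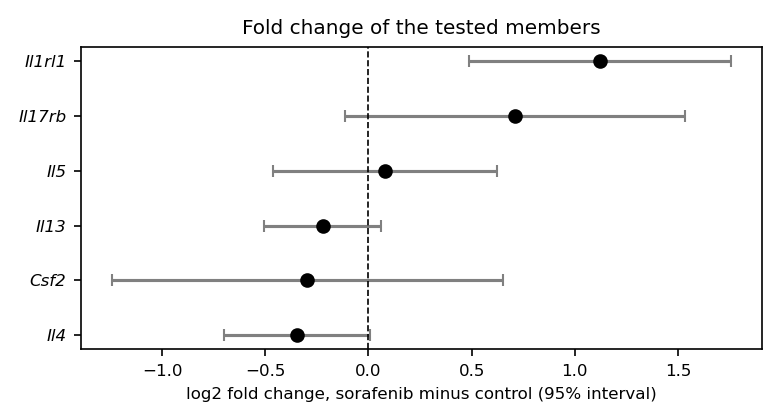
Log2 fold change of sorafenib minus control (horizontal axis) for the 6 members with enough counts to be tested; points are edgeR estimates and bars their 95% intervals. The interval of Il1rl1 lies wholly above 0, and those of the other 5 include 0.

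RefSeq lists a pair of starts for Il1rl1 on the plus strand of GRCm38.p6, at which the 250 bases upstream are chr1:40429320-40429569 and chr1:40439379-40439628. They are printed because Il1rl1 was the member that was called, with capitals marking matches on either strand to GATAA, the core recognised by GATA factors, TGGAAA, the core of NFAT sites, TGANTCA, the AP-1 site, and TTCNNNGAA, the STAT site.

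Il1rl1 distal start: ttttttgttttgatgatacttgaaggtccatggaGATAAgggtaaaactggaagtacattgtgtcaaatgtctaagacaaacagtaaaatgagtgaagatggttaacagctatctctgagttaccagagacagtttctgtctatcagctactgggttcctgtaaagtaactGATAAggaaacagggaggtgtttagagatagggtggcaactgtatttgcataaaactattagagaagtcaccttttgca

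Il1rl1 proximal start: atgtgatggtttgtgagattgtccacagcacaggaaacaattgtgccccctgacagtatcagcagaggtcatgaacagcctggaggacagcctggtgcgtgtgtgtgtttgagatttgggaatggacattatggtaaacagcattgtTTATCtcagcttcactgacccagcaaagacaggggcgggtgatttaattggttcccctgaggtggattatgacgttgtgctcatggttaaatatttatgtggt

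The distal stretch held 2 GATAA matches and the proximal stretch 1, on the other strand, and neither held any of the other motifs. GATAA occurred in 22.6% of the 32851 upstream stretches of the same length in the RefSeq table, TGGAAA in 18.6%, TGANTCA in 6.75% and TTCNNNGAA in 7.02%. All 9 members had a listed start, 11 in all. Of these 11 stretches, 5 held GATAA, 5 held TGGAAA, 1 held TGANTCA and 0 held TTCNNNGAA, and no matches of different motifs overlapped in them. A match describes the letters and shows no binding.

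Il17rb, the interleukin 25 receptor gene, was higher in every sorafenib library but was not called. It had 15, 30 and 21 counts in control and 41, 36 and 39 counts in sorafenib libraries, or 0.402, 0.871 and 0.559 CPM against 1.06, 0.939 and 0.995 CPM. Control replicate 2 came nearest to the sorafenib values. The log2 fold change was 0.71 ± 0.37 SE (adjusted p = 0.227), with an interval of the ratio from 0.924 to 2.89, and without control replicate 2 it was 1.05 (adjusted p = 0.0691).

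The upstream stretches of Il17rb (minus strand of GRCm38.p6, chr14:30008897-30009146) and of Il3 (minus strand, chr11:54267280-54267529) are printed for comparison with those of Il1rl1, since these members also separated the groups; that of Il31 held no match. Il17rb held the single TGANTCA match among the members, and Il3 held 2 GATAA matches and 1 TGGAAA match.

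Il17rb: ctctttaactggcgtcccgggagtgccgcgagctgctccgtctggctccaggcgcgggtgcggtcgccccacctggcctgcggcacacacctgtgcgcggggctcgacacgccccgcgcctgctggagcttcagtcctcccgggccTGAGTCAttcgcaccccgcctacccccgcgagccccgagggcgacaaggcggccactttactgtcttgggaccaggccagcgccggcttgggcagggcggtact

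Il3: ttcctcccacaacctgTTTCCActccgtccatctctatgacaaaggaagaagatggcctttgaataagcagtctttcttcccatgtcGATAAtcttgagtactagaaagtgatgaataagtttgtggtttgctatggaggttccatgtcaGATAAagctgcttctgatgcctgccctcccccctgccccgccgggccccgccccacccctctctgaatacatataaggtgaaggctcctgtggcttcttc

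In the RefSeq gene order on chromosome 1, Il1rl1 stands in a run of interleukin 1 receptor family genes, Il1r2, Il1r1, Il1rl2, Il1rl1, Il18r1 and Il18rap. Of 8 tested genes on a list of its neighbours, 3 were called higher and 1 lower, with a median log2 fold change of 0.65. The 3 that rose were Il18rap, Il18r1 and Il1r2, and the gene that fell was the transporter gene Mfsd9 (1.31-fold, adjusted p = 0.0417), whose call was lost under 12 of 17 alternatives, among them each fit without a library other than control replicate 1.

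Il18rap, the signalling chain of the interleukin 18 receptor, rose from 0.911, 0.784 and 0.479 CPM to 3.58, 2.95 and 3.75 CPM, 4.72-fold higher (adjusted p = 0.000375). Il18r1, the ligand-binding chain, rose from 3.11, 3.69 and 3.22 CPM to 8.55, 5.97 and 7.61 CPM, 2.21-fold higher (adjusted p = 0.00116). Il1r2, the decoy receptor for interleukin 1, rose from 5.65, 6.01 and 3.65 CPM to 11.6, 10.9 and 9.19 CPM, 2.07-fold higher (adjusted p = 0.0031). None of these 3 genes overlapped between groups, and their calls held under every alternative that tested them. Il1r1, the signalling interleukin 1 receptor, missed the threshold (log2 fold change 0.73 ± 0.28 SE, adjusted p = 0.0986) and passed it in the fit without the low-count filter (adjusted p = 0.0413) and in the fit that left out control replicate 3 (adjusted p = 0.0453). Il1rl2, the interleukin 36 receptor gene, had a log2 fold change of 0.56 ± 0.41 SE (adjusted p = 0.397). Il1r1 and Il1rl2 were singled out after their values were seen.

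**Figure D4:**
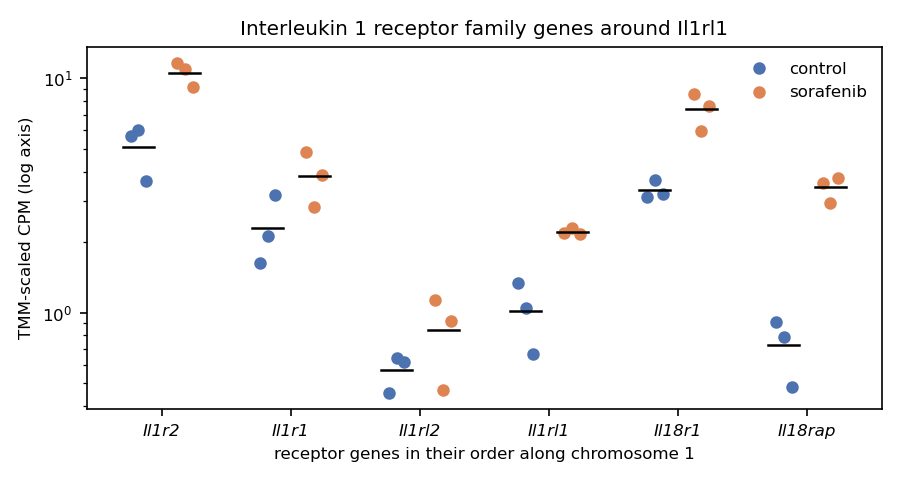
TMM-scaled CPM (vertical axis, log scale) of the 6 receptor genes in their order along chromosome 1 (horizontal axis); points are libraries and black lines group means. Il1r2, Il1rl1, Il18r1 and Il18rap separate the groups, with sorafenib higher, while Il1r1 and Il1rl2 overlap.

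The cytokine locus on chromosome 11 gave other counts. Of 16 tested neighbours of Il4, Il5 and Csf2, 2 were called higher, Cdc42se2 by 1.25-fold (adjusted p = 0.0139) and the interferon response factor gene Irf1 by 1.2-fold (adjusted p = 0.0184). P4ha2, a prolyl hydroxylase gene beside Csf2, was called 1.5-fold lower (adjusted p = 0.000763). The list's median log2 fold change was 0.04, and without control replicate 2 the counts were 3 higher and 3 lower, and without sorafenib replicate 1 or 2 they were 0 higher and 1 lower. The call of Cdc42se2 was lost without sorafenib replicate 1 or 2 and that of Irf1 without control replicate 3 or any 1 of the sorafenib replicates (adjusted p up to 0.0671 and 0.0927 over the alternatives). RefSeq places a long noncoding gene over Il3 and another over Csf2, and with no statement of the strand setting used in counting, reads of these pairs cannot be told apart.

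Among the alarmin ligands, co-receptors and adaptors, 3 of 16 tested were called higher and 3 lower, with a median log2 fold change of -0.03. Il1rap, the partner chain of ST2, rose with it, from 5.84, 5.34 and 5.3 CPM to 7.7, 9.05 and 7.2 CPM, 1.45-fold (adjusted p = 0.0194); this gene was singled out after its values were seen, and leaving out control replicate 3 ended its call (adjusted p = 0.0713), as did leaving out sorafenib replicate 1 or 2 (adjusted p = 0.0601 and 0.0914), and it was not called in the 3 FPKM fits (adjusted p of 0.104 to 0.133). Irak3, which encodes an inhibitor of signalling downstream of these receptors, rose 2.31-fold (adjusted p = 0.0105), and Irak1bp1 rose 1.84-fold (adjusted p = 0.0131). Without sorafenib replicate 3 both calls were lost (adjusted p = 0.0691 and 0.085), and the call of Irak3 also without sorafenib replicate 1 (0.0521).

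Il7r, whose product pairs with CRLF2 as the receptor of the alarmin TSLP, fell 1.55-fold (adjusted p = 0.000126), and Sigirr, a negative regulator of ST2 signalling, fell 1.24-fold (adjusted p = 0.00811), a call lost without sorafenib replicate 1 or 3 (adjusted p = 0.0545 and 0.0533) or on log2(FPKM + 1) without a filter (0.0562). Crlf2, singled out after its values were seen, fell 1.25-fold (adjusted p = 0.0131), a call lost without any 1 of the sorafenib replicates. The list's counts were 1 higher and 1 lower without sorafenib replicate 1, and the same without sorafenib replicate 3. Il17ra, the partner of IL-17RB, averaged 72.1 ± 3.78 CPM in control and 64 ± 1.51 CPM in sorafenib libraries (SD, n = 3 each) and was not called (adjusted p = 0.124), except without control replicate 2, as lower (adjusted p = 0.0239). This gene too was singled out after its values were seen. The ligand genes Il33 and Tslp had at most 6 counts in any library.

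Of the receptor genes for the cytokines of the set, with Egfr counted for the product of Areg, 3 of 8 tested were called lower and 0 higher. Their median log2 fold change was -0.24. Il4ra, the interleukin 4 receptor chain shared with interleukin 13, fell 1.32-fold, from 998.7 ± 39.98 to 759 ± 7.2 CPM (adjusted p = 0.00637). Il13ra1, the chain that completes the type II receptor, had little transcript in either group and fell 4.61-fold, 1.99 ± 0.15 CPM in control against 0.429 ± 0.218 CPM (adjusted p = 0.00277). Il2rg, the common γ chain, fell 1.2-fold (adjusted p = 0.0316), a call lost under 11 of 17 alternatives, among them total counts only and each fit without a library other than control replicate 2. The Il4ra call was lost without sorafenib replicate 3 (adjusted p = 0.056) and on log2(FPKM + 1) without a filter (0.057). Without control replicate 2 this list had 1 higher and 4 lower, and without sorafenib replicate 3 it had 1 lower, as in the 3 FPKM fits.

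Transcription factors linked to type 2 cytokine genes moved in both directions, 4 of 24 tested higher and 9 lower, with a median log2 fold change of -0.09. Maf, an activator of Il4, fell 1.86-fold (adjusted p = 0.000269), Nfil3 fell 1.64-fold (adjusted p = 6.43e-05), the chromatin organiser gene Satb1 fell 1.59-fold (adjusted p = 0.00111) and Crem fell 1.48-fold (adjusted p = 0.000823). Gata3, which binds the Il4, Il5 and Il13 locus and Il1rl1 in Th2 cells, was higher, at 65.1, 51 and 67.1 CPM in control and 89.1, 85.1 and 90.9 CPM in sorafenib libraries (1.45-fold, adjusted p = 0.00463; 0.053 on log2(FPKM + 1) without a filter). The other genes of this list called higher were Bhlhe41 (3.02-fold, adjusted p = 0.00198), Nfatc3 (1.22-fold, adjusted p = 0.028) and Notch1 (1.37-fold, adjusted p = 0.0477). They were singled out after their values were seen. Leaving out sorafenib replicate 1 or 2 gave the list 2 higher and 7 lower, and leaving out sorafenib replicate 3 gave 2 and 6. The genes called higher in each of these fits were Gata3 and Bhlhe41, so Nfatc3 and Notch1 were not called there. On log2(FPKM + 1) without a filter the list's counts were 1 and 5.

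On a list of genes linked to repression of type 2 cytokines, 6 of 25 were called higher and 6 lower, with a median of -0.04. The list includes Tcf7, whose product does not act only as a repressor of them. Tcf7 rose 1.89-fold (adjusted p = 4.54e-05), Sox4, whose product restrains GATA3, rose 2.94-fold (adjusted p = 0.000103) and Zfpm1, a GATA cofactor gene, rose 1.68-fold (adjusted p = 0.00027). Zfp36, which encodes an RNA-binding protein that destabilises cytokine mRNAs, fell 1.72-fold (adjusted p = 0.00136; 0.0524 on log2(FPKM + 1) without a filter). Total counts only gave 7 higher and 2 lower, and leaving out sorafenib replicate 1, 2 or 3 gave 4 and 3, 5 and 2, or 4 and 1. On log2(FPKM + 1) without a filter the counts were 5 and 0. In a list of genes linked to decay of cytokine RNA, not all of which promote it, 2 of 12 rose, N4bp1 and Zfp36l1. A further 2 fell, Zfp36 and Malt1, and the median was -0.04. Without control replicate 2 the counts were 2 and 5, and without sorafenib replicate 1 they were 1 and 1. They were 0 and 1 without sorafenib replicate 3, and 0 and 0 on log2(FPKM + 1) without a filter. The call of Malt1 was lost under 7 of 17 alternatives, that of Zfp36l1 without sorafenib replicate 1, 2 or 3 (adjusted p up to 0.0839) and that of N4bp1 without sorafenib replicate 3 (adjusted p = 0.0501). On log2(FPKM + 1) without a filter the adjusted p of these 3 genes was 0.213, 0.0764 and 0.0618.

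Other Th2 effector genes fell more often than they rose in this comparison, 10 against 4 of 22 tested, with a median log2 fold change of -0.24 against -0.01 for all tested genes. The list was chosen with earlier results of these data known. Its counts therefore describe its own genes and are no test of them against all genes. Ecm1 fell 6.03-fold (adjusted p = 5.66e-06), Il24 fell 3.43-fold (adjusted p = 2.83e-06), Il10 fell 2.58-fold (adjusted p = 1.98e-05) and Il21 fell 1.52-fold (adjusted p = 0.000308). The 4 that rose were Il18r1 and Il9, described above, Il2 (1.64-fold, adjusted p = 0.02) and Ccr8 (1.25-fold, adjusted p = 0.00822). Il2 and Ccr8 were singled out after their values were seen. Without sorafenib replicate 3 the list had 2 higher and 9 lower, and neither Il2 nor Ccr8 was called. Without control replicate 3, sorafenib replicate 1 or sorafenib replicate 2 it had 3 higher and 9 lower, so Il2 and Ccr8 were not both called.

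Markers of other cells that make type 2 cytokines or carry ST2 were measured beside these results. Of 15 mast cell and basophil markers 7 were in the table and 2 tested, with 0 called by edgeR and 0 at an unadjusted p under 0.05; neither tested gene, Kit or Hdc, was called by DESeq2 or limma. Their summed level was 17.8 to 19.6 CPM in control and 19.1 to 20.7 CPM in sorafenib libraries, almost all of it Kit, which T cells can also express. Without Kit the sums were 1.15 to 1.57 CPM and 0.86 to 1.3 CPM. The protease genes Mcpt4, Mcpt8 and Cma1 had at most 1 count in any library. Mcpt1, another protease gene, had 4, 0 and 2 counts in control and 1, 4 and 9 counts in sorafenib libraries. Of 11 eosinophil markers 7 were in the table and 2 tested, with 0 called higher and 1 lower. The markers in the table summed to 2.56 to 2.95 CPM in control and 1.62 to 1.89 CPM in sorafenib libraries, with Siglecf at 0 or 1 count. Ccr3, which Th2 cells also express, fell 5.21-fold (adjusted p = 0.0032). The other tested marker, Alox15, was not called (log2 fold change 0.36 ± 0.29 SE, adjusted p = 0.455). Il5ra had 0 counts in every control library and 2, 1 and 5 counts in sorafenib libraries. Alox15 and Il5ra were singled out after their values were seen.

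Markers of type 2 innate lymphoid cells, many of which T cells share, had 1 of 9 tested higher (Gata3) and 2 lower (Il7r and Ly6a), with sums of 775 to 869 CPM in control and 662 to 728 CPM in sorafenib libraries. Without control replicate 1 the counts were 1 higher and 4 lower. Of the CD4 T cell markers 0 of 12 rose and 6 fell, Cd2, Cd28, Cd3g and Cd247 among them by 1.29- to 1.5-fold, with sums of 3619 to 3689 and 3129 to 3186 CPM. Without sorafenib replicate 3, and on log2(FPKM + 1) without a filter, 3 of the 12 fell, and Cd247 was not among the called genes (adjusted p = 0.0657 and 0.0602). With all libraries, Cd4 averaged 475 ± 35.9 CPM in control and 495 ± 10.7 CPM in sorafenib libraries and was not called (adjusted p = 0.671). Lat and Ptprc, the largest gene of the sum, were not called either (adjusted p = 0.597 and 0.803). Cd4, Lat and Ptprc were singled out after their values were seen. Innate-like T cell markers had 1 of 2 tested higher, Blk, a call lost without any 1 library other than control replicate 2. They summed to 1.15 to 2.01 CPM in control and 2.09 to 2.53 CPM in sorafenib libraries. Without Blk the sums were 1.01 to 1.8 CPM in control and 0.73 to 1.12 CPM in sorafenib libraries. A list of regulatory T cell markers, written after the data were seen because regulatory T cells can carry ST2, had 3 of 12 higher, and 7 lower, with sums of 6275 to 6446 CPM in control and 4180 to 4340 CPM in sorafenib libraries. Itgae rose 2.91-fold (adjusted p = 5.4e-05) and Foxp3 2.03-fold (adjusted p = 0.000356), while Gpr83 fell 2.75-fold (adjusted p = 5.71e-05) and Ctla4 fell 1.84-fold (adjusted p = 9.1e-05).

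B cell markers rose in 6 of 8 tested and fell in 1, Ebf1. Their sums were 27.8 to 36.1 CPM in control and 38.6 to 41.3 CPM in sorafenib libraries, and without Ebf1 8.07 to 17.4 CPM and 32.6 to 35.7 CPM. Of 4 tested macrophage and dendritic cell markers 1 rose, Flt3, and the list's sums were 7.72 to 11.6 and 13 to 13.6 CPM. The part of any of these cells in the higher Il1rl1 and Il17rb and the lower Il3 was not tested.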

How the data were processed

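For the 6 libraries the authors deposited gene counts, as whole numbers, and FPKM values. The GRCm39 build is named in the submitters' processing notes, along with HISAT2, HTSeq, fastp, DESeq2 and R 3.2.0. What each tool did, which strand setting was used and how reads shared by several genes were counted is not given in the sources used here. The deposited FPKM equal the count divided by column total and gene length. Sequences and gene order are from RefSeq on GRCm38.p6, and no coordinates were converted.

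After filterByExpr and TMM scaling, counts were tested in edgeR 4.0.16 (robust quasi-likelihood F test on group alone, with 4 residual degrees of freedom) in R 4.3.3, with Benjamini-Hochberg adjustment over all 13255 tested genes and a threshold of 0.05. The fit was tested on simulated data. Alternatives were other scalings and filters, leaving out each library, a replicate block, DESeq2 1.42.0, limma 3.58.1 (voom, and trend on log2 FPKM with pseudocounts of 1 and 0.1) and a threshold of 0.01.

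The members and gene lists were chosen with earlier results of these data known. Named genes are all members, up to 4 called genes of each list by smallest adjusted p, or up to 2 by smallest p where none was called, and for each tested member its 2 nearest genes by profile; others are said to be singled out. The nearest genes of Il4 are not reported here. Samples were grouped by title. Poisson intervals are exact at 95% and cover counting error only.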

Additional observations from a re-analysis of the deposited data

How the results depend on the processing

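As reported, 2378 of all tested genes were called and 1 of the members, Il1rl1. The number of genes was 1243 to 4325 over the fits that left out 1 library, with the highest count when control replicate 2 was left out and 1294, 1549 and 1243 when sorafenib replicates 1, 2 and 3 were. It was 1423 on log2(FPKM + 1) without a filter, and 1227 at a threshold of 0.01. With total counts only, 1496 were higher and 826 lower, upper-quartile factors gave 1363 and 1084, and the FPKM fits gave 903 and 520 without a filter and 1398 and 744 or 1374 and 737 with it. The number of members called was 2 without the low-count filter (Il1rl1 and Il3), 0 to 1 over the fits that left out a library, 0 in both FPKM fits with a mean of at least 0.5, where Il1rl1 and Il17rb were not tested, and 0 at the threshold of 0.01. On log2(FPKM + 1) without a filter it was 1, but that gene was Il31. The replicate block gave 2139 genes and 1 member, and under it Adam10, Rhbdf2, Il2rg and Mfsd9 were not called (adjusted p = 0.088, 0.0502, 0.0685 and 0.0692); same-numbered libraries had correlations of deviations of -0.107, 0.13 and 0.127, so the numbers were not taken to pair the samples, and sorafenib replicate 1 correlated best with control replicate 3 (0.121). Over the fits that left out a library the log2 fold change was -0.016 to 0.232 for Il5 and -0.575 to 0.062 for Csf2, with the sign changed in both without sorafenib replicate 3; the cause was not tested. Il4, Il13 and Il17rb kept their direction and were not called under any of the 17, 17 and 14 alternatives that tested them. Alternatives for the list genes were added after seeing the data. Il3, Il31 and Areg are limited by depth.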

Other observations

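The proportions among the classical type 2 cytokines were described within each library. The ratio of Il4 to Il13 FPKM was 1.24 ± 0.237 in control and 1.12 ± 0.177 in sorafenib libraries (SD, n = 3 each), with overlapping groups. The ratio of Il4 to Il5 FPKM was 11.4, 11.6 and 10.5 in the control libraries and 7.29, 9.4 and 8.55 in the sorafenib libraries, without overlap. Neither ratio was tested.

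The tested members other than Il4 were compared with genes of a mean log2 CPM of at least 3 by the root mean square difference of their log2(CPM + 0.5) deviations over the 6 libraries. The added 0.5 shrinks the deviations of low members, such as Il17rb (0.611 ± 0.239 CPM in control libraries) and Il1rl1 (1.02 ± 0.338 CPM). Their distances are therefore not on the same footing as those of Il13. Nearest to Il1rl1 were Recql4 (0.123 log2 units), a DNA helicase gene that rose 1.66-fold, and Inka2 (0.145), which rose 2.1-fold. Il13 lay nearest to the chemokine receptor gene Ccr7 (0.0375) and Maged1 (0.0395), Il5 to Znhit2 (0.0597) and Fem1c (0.0721), Il17rb to Hadh (0.0326) and Eola1 (0.0497), and Csf2 less closely to Mapre3 (0.159) and Eef1akmt2 (0.202).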
